A study of Mus musculus with 6 samples.

Results

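The genes described here are 9 genes, Gcsam, Nuggc, Mybl1, Basp1, Lmo2, Efnb1, Plxnb2, Sugct and Rassf6, taken by name as genes enriched in germinal centre B cells outside the group of germinal centre transcription factors. They are 9 of the 23412 rows of the count table. Of these, 8 stood under the listed symbol, and Sugct stood under its older symbol 5033411D12Rik, matched through the RefSeq table of assembly GRCm38.p6. The description as genes other than transcription factors does not hold for Mybl1, which encodes the DNA-binding factor A-MYB, and Lmo2 encodes a cofactor of transcription factors. No B cells from outside the germinal centre were analysed here, so enrichment itself was not measured.

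RNA was sequenced from sorted splenic germinal centre B cells positive for B220, GL7 and Fas, on day 10 after immunization of mice with sheep red blood cells. DAF-TM mice were Cg1-cre(+/-);R26-DAF-TM(fl/fl) and so carried a Cre-dependent cassette for the complement regulator DAF at Rosa26, and control mice were Cg1-cre(+/-). Both groups carried the Cg1-cre allele, in which Cre is made from the IgG1 constant region locus, so recombination depends on cells that transcribe it. The file header writes the same groups as cg1-cre (+/fl) with DAF-tg(fl/fl) or DAF-tg(+/+), and strain, age, sex and pooling of animals are not given. The labels list 3 replicates per group, but replicate 3 of DAF-TM repeats replicate 2 in each row of the table. That pair of columns was identical and was counted as 1 sample (DAF-TM library 2). This left 2 DAF-TM and 3 Cg1-cre libraries of 7257339 to 12783965 counts. The labels do not say whether each library came from its own mouse or mice. Sex-linked RNA, given below, differed between Cg1-cre library 1 and the other two controls and between the DAF-TM libraries, so these did not all hold RNA of the same animals. For Cg1-cre libraries 2 and 3 the spread may be technical.

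In a germinal centre, B cells divide, mutate their antibody genes and compete for help from follicular T cells. Surface proteins such as ephrins and plexins guide contacts between B and T cells there, adaptor proteins tune signals from the antigen receptor and cell movement, and nuclear proteins shape the programme of the dividing cell. Several of the genes below are used as markers of germinal centre B cells and of the lymphomas that arise from them.

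Checks of the labels came first. Cd55, the mouse gene of DAF, stood at 712 and 725 normalised CPM (counts scaled to library size with TMM factors) in DAF-TM libraries 1 and 2 and at 28.7, 34.3 and 23.4 CPM in Cg1-cre libraries 1 to 3. Germinal centre markers were present in every library, with the receptor S1pr2 at 530 and 473 CPM in DAF-TM libraries and 555, 582 and 633 CPM in Cg1-cre libraries. Libraries of 1 group differed in sex-linked RNA. Xist stood at 296 and 719 CPM in DAF-TM libraries 1 and 2, against 758, 2.63 and 2.86 CPM in Cg1-cre libraries 1 to 3, and DAF-TM library 1 also held the Y-linked Ddx3y at 141 CPM. Values without each library are therefore given below where they change a direction.

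Promoters of 4 members are shown because these genes fall into pairs that peaked in different control libraries, Gcsam with Rassf6 and Efnb1 with Plxnb2. Each run is the 250 bases before a RefSeq transcription start of GRCm38.p6, 5′ to 3′ on the strand of the gene. The windows are chr16:45610190-45610439 (plus) for Gcsam, chr5:90640528-90640777 (minus) for Rassf6, chrX:99135811-99136060 (plus) for Efnb1 and chr15:89180789-89181038 (minus) for Plxnb2. The Rassf6 start lies inside the gene, which reaches 90640734 in RefSeq, so its window overlaps the gene. RefSeq Plxnb2 likewise reaches 89182018, beyond the start used. The Gcsam window runs past the GENCODE M21 start at 45610380. Capitals mark letters that match a searched motif on either strand.
Gcsam: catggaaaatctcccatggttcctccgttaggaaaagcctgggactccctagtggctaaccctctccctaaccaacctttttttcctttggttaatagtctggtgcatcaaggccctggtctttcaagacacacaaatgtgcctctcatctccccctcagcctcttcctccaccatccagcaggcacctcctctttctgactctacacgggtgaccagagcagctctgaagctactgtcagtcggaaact
Rassf6: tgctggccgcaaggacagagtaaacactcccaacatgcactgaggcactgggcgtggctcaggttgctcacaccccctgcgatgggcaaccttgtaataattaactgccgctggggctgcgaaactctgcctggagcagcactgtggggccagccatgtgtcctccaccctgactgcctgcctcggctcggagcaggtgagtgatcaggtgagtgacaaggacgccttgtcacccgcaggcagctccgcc
Efnb1: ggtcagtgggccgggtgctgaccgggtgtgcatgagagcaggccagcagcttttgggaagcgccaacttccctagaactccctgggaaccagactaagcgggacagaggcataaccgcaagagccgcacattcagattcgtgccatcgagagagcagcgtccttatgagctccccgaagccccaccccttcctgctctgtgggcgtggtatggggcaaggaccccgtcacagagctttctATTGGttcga
Plxnb2: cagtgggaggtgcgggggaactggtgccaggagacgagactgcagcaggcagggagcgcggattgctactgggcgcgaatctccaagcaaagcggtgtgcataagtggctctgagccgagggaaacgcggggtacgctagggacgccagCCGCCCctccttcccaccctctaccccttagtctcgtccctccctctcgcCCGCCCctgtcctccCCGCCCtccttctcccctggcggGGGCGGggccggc

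The 9 motifs searched on both strands were the octamer ATGCAAAT, the BCL6 and STAT core TTCNNNGAA, the NF-Y box CCAAT, the GC box GGGCGG, the E box CACGTG, the TATA box TATAAA, the ETS site CCGGAAGT, the AP-1 site TGANTCA and the E2A E box CAGCTG. The Gcsam and Rassf6 windows held none of these letters, the Efnb1 window held 1 NF-Y box that began 10 bases before the start, and the Plxnb2 window held 4 GC boxes. The second Plxnb2 start in the table had 3 GC boxes, and the windows of Basp1 and Sugct had 4 and 6. Basp1 peaked in the same control library as Gcsam and Rassf6, as did Mybl1 and Lmo2, for which no window was found. A link between motifs and the library of the peak was not tested. Over all 32851 windows of the same length, 32.7% held a GC box and 33.8% an NF-Y box, while the other 7 motifs were in 1.60% (octamer) to 13.0% (E2A E box). G and C made up 51.6% of the Gcsam window, 61.6% of Rassf6, 60.0% of Efnb1 and 69.2% of the first Plxnb2 window.

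None of the 9 genes passed the test between DAF-TM and Cg1-cre cells. The 8 abundant members all had negative log2 fold changes, between -0.06 for Efnb1 and -0.36 for Mybl1 and Rassf6, and Sugct stood at 0.30. In 3 of the 9 (Nuggc, Mybl1 and Rassf6) both DAF-TM libraries lay below all 3 Cg1-cre libraries. The same was found in 9.02% of all genes tested, and in 25.1% of the 2094 genes tested in the level range of the 8 abundant members. Slightly lower values were common at this abundance, being found in 85.5% of those 2094 genes.

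The test was edgeR's quasi-likelihood test over 18767 genes, with Benjamini-Hochberg adjustment and a threshold of 0.05, and all 9 members passed its filter on low counts. It called 0.41% of all genes tested (70 higher and 7 lower in DAF-TM cells) and 0 members. An unadjusted p under 0.05, in either direction, was found for 2 members and for 1078 of all 18767 genes tested. DESeq2 and limma-voom also called 0 members, though DESeq2 gave Sugct no adjusted p. The fit relied on the spread pooled over genes far more than on that of a single gene (1139 prior against 3 residual degrees of freedom, median over genes), so standard errors were nearly equal, 0.17 for each of the 8 abundant members. Leaving out DAF-TM library 1, in which Xist and Ddx3y were both detected, the median log2 fold change of the 9 was -0.19 in place of -0.14. That fit has 1 DAF-TM library, assumed to vary like the controls, and called 14 genes in all and 0 members, so its lack of calls says little. The 95% intervals of these 8 ran from 0.622-fold (Mybl1 and Rassf6) to 1.20-fold (Efnb1). In bulk RNA, fewer cells of a type and less RNA per cell cannot be told apart.

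**Figure D1:**
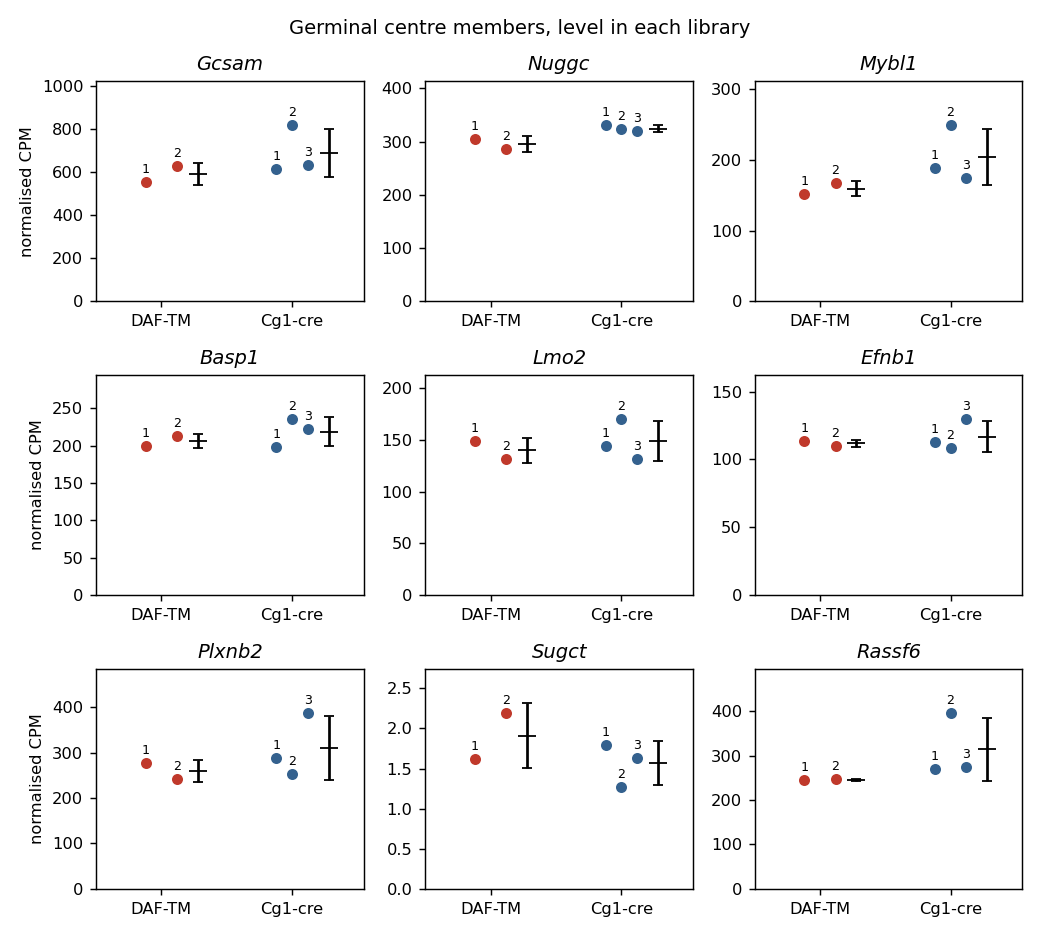
Normalised CPM of each member (vertical axes from 0) in 2 DAF-TM libraries (left, red) and 3 Cg1-cre libraries (right, blue), with library numbers and bars for the mean ± SD. Cg1-cre library 2 was highest for Gcsam, Mybl1, Basp1, Lmo2 and Rassf6, and Cg1-cre library 3 for Efnb1 and Plxnb2.

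Abundance was set between genes only per kilobase of exon, with the union of exons in GENCODE M21 as length, since the annotation behind the counts is not given. The order on that scale was Gcsam (190 CPM per kb on average over the 5 libraries), Nuggc (110), Basp1 (106), Rassf6 (67.3), Lmo2 (67.1), Plxnb2 (37.5), Mybl1 (34.4), Efnb1 (33.3) and Sugct (0.497). Gcsam stood apart from its neighbour, with a lowest library of 162 CPM per kb against a highest of 117 for Nuggc and for Basp1. Nuggc and Basp1 overlapped each other, as did Rassf6 with Lmo2, and as did Plxnb2, Mybl1 and Efnb1 among themselves. Before division by length, the 8 abundant members had a mean CPM above that of 88.1% (Efnb1) to 99.2% (Gcsam) of genes tested, and Sugct above that of 17.0%.

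Gcsam, the adaptor protein that in human cells binds SYK and tunes antigen receptor signalling and cell movement, lies on chromosome 16 (45610380 to 45622867, plus strand, GRCm38). It stood at 554 and 628 CPM in DAF-TM libraries 1 and 2 and at 614, 818 and 632 CPM in Cg1-cre libraries 1 to 3. The groups overlapped, since DAF-TM library 2 lay above Cg1-cre library 1. Its log2 fold change of -0.22 (SE 0.17, edgeR adjusted p = 0.945) was -0.08 without Cg1-cre library 2, the highest.

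Efnb1 encodes ephrin-B1, a membrane ligand of Eph receptors that in mice restrains the movement of follicular T cells in the germinal centre. The gene is on chromosome X (99136130 to 99148991, plus strand). Its level was 114 and 110 CPM in DAF-TM libraries and 113, 108 and 130 CPM in Cg1-cre libraries, so the DAF-TM libraries lay within the control range. Its log2 fold change was -0.06 (SE 0.17, edgeR adjusted p = 0.981), and the direction turned without Cg1-cre library 3 (0.04). Across libraries that differed widely in Xist, Efnb1 stood at 110 and 113 CPM in the 2 with most Xist (DAF-TM library 2 and Cg1-cre library 1), and 108 and 130 CPM in the 2 with least (Cg1-cre libraries 2 and 3).

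Plxnb2, a receptor for class 4 semaphorins that in mouse germinal centre B cells meets Sema4c on follicular T cells, lies on chromosome 15 (89155549 to 89180788, minus strand). Its level was 277 and 242 CPM in DAF-TM libraries and 289, 253 and 388 CPM in Cg1-cre libraries. Cg1-cre library 3 lay far above the other controls, and DAF-TM library 1 lay above Cg1-cre library 2. The log2 fold change of -0.25 (SE 0.17, edgeR adjusted p = 0.945) was -0.05 without Cg1-cre library 3.

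Among the nuclear members, Nuggc encodes a GTPase of germinal centre B cell nuclei, also called SLIP-GC, on chromosome 14 (65598546 to 65648531, plus strand). It held 306 and 285 CPM in DAF-TM libraries and 331, 323 and 320 CPM in Cg1-cre libraries. Relative to their mean, its controls lay closest together of all members, at 324 ± 5.77 CPM (SD, n = 3), and both DAF-TM libraries lay below them, at 295 ± 14.4 CPM (SD, n = 2). The difference was small, with a log2 fold change of -0.14 (SE 0.17, edgeR adjusted p = 0.954).

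Mybl1, the A-MYB factor of dividing germinal centre B cells and of male meiosis, is on chromosome 1 (9667415 to 9700209, minus strand). It stood at 152 and 167 CPM in DAF-TM libraries and at 188, 249 and 174 CPM in Cg1-cre libraries, with no overlap between the groups. The gap between DAF-TM library 2 and Cg1-cre library 3 was smaller than the spread among the controls. Mybl1 had a log2 fold change of -0.36 (95% interval -0.69 to -0.03, unadjusted p = 0.0339, edgeR adjusted p = 0.829), and -0.19 without Cg1-cre library 2.

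Lmo2 encodes a LIM-only protein that bridges DNA-binding factors and is used as a marker of human germinal centre lymphoma; the gene lies on chromosome 2 (103957986 to 103981878, plus strand). It stood at 149 and 131 CPM in DAF-TM libraries and at 144, 170 and 132 CPM in Cg1-cre libraries. The groups overlapped. The log2 fold change of -0.09 (SE 0.17, edgeR adjusted p = 0.970) turned to 0.02 without Cg1-cre library 2.

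Basp1, a lipid-anchored protein of the inner cell membrane best known from nerve growth cones, lies on chromosome 15 (25363277 to 25413764, minus strand). Its level was 200 and 212 CPM in DAF-TM libraries and 198, 236 and 222 CPM in Cg1-cre libraries, and the DAF-TM values lay inside the control range. Its log2 fold change was -0.09 (SE 0.17, edgeR adjusted p = 0.970), with -0.15 to -0.03 when 1 library was left out.

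Rassf6 encodes a Ras association domain protein that binds the MST kinases of the Hippo pathway, on chromosome 5 (90603076 to 90640657, minus strand). It stood at 244 and 247 CPM in DAF-TM libraries and at 271, 396 and 275 CPM in Cg1-cre libraries. The DAF-TM libraries were close to each other and below every control, of which library 2 was far above the other two. Rassf6 had a log2 fold change of -0.36 (95% interval -0.68 to -0.03, unadjusted p = 0.0341, edgeR adjusted p = 0.829), and -0.15 without Cg1-cre library 2.

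Sugct, a mitochondrial enzyme that passes coenzyme A to glutarate, lies on chromosome 13 (16857472 to 17695553, minus strand) and was the exception in level. It had 18 and 26 raw counts in DAF-TM libraries (1.62 and 2.20 CPM) and 17, 15 and 12 in Cg1-cre libraries (1.80, 1.27 and 1.63 CPM), and the groups overlapped. A high level of Sugct RNA was thus not seen in these germinal centre cells. In GENCODE M21 an exon of Sugct overlaps one of Mplkip on the other strand, which stood at 106 CPM on average, and how reads in shared bases were assigned is not given. The log2 fold change was 0.30 with a wide 95% interval, -0.73 to 1.32 (edgeR adjusted p = 0.969). It was 0.06 without DAF-TM library 2, 0.49 without DAF-TM library 1 and 0.15 without Cg1-cre library 2.

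**Figure D2:**
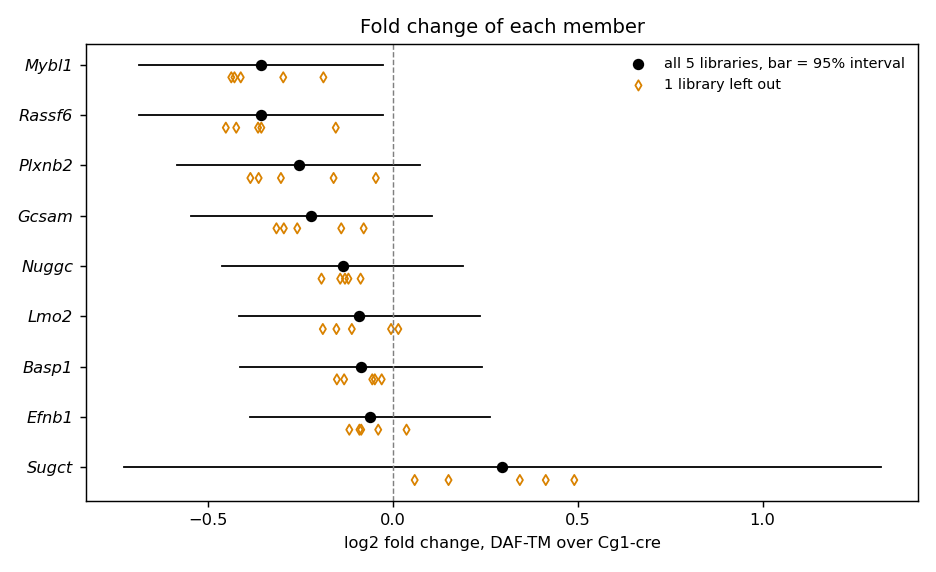
Log2 fold change of DAF-TM over Cg1-cre (horizontal axis) for each member with all 5 libraries (black points, bars are 95% intervals) and with 1 library left out (open diamonds). Intervals of Mybl1 and Rassf6 end at -0.03, and diamonds of Lmo2 and Efnb1 lie on both sides of 0.

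The 3 members without overlap between groups were set against all genes. In the same direction, 9.02% of all genes tested had both DAF-TM libraries below all controls, and 11.3% had them above. An unadjusted p under 0.05 with a lower value in DAF-TM cells occurred in 2.06% of all genes tested. The members other than Sugct averaged 115 to 649 CPM, and 2094 genes tested lay in that range, a range chosen after the values were seen. A negative log2 fold change was found in the 85.5% of these given above, against 46.1% of all genes tested. Their median was -0.14, and that of the 8 abundant members was -0.18. In the same range 25.1% of genes had both DAF-TM libraries below all controls, against 3 of the 8 members, 6.4% had an unadjusted p under 0.05 with a lower value, against 2 of the 8, and 0.191% passed the adjusted threshold, against 0 of the 8. For genes with a mean of 1 to 3 CPM, the level of Sugct, the median was 0.25. An exact permutation test over the libraries (two-sided) gave p = 0.2 for Nuggc, Mybl1 and Rassf6, and 0.4 to 1 for the other 6. Its two-sided p doubles the p of a single direction. In that form 0.2 is the smallest value possible with 2 against 3 libraries.

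**Figure D3:**
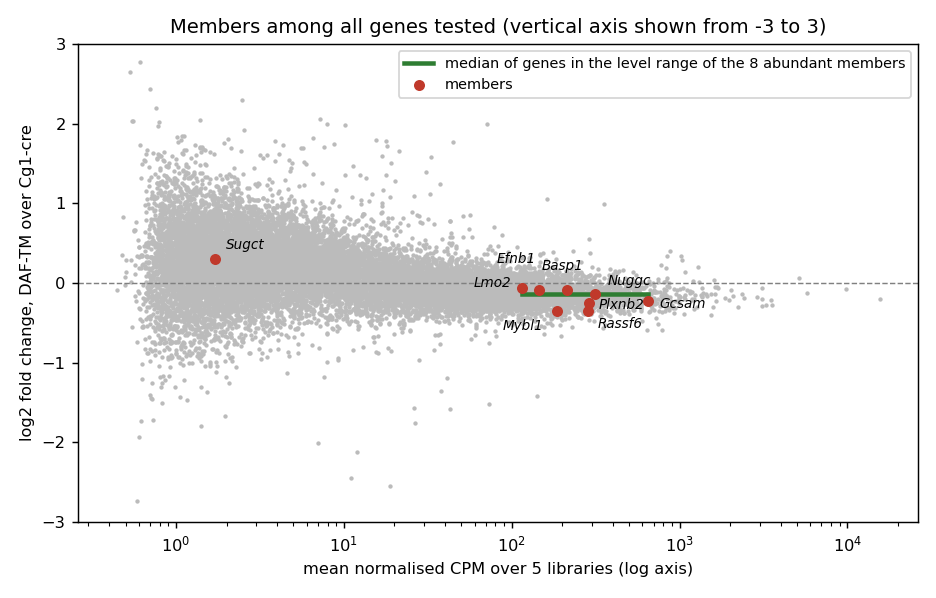
Log2 fold change (DAF-TM over Cg1-cre) against mean normalised CPM over 5 libraries (log axis) for all 18767 genes tested (grey) and the members (red). The green line is the median, -0.14, of genes in the level range of the 8 abundant members, which lie on both sides of it.

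The highest values of the abundant members lay in the control libraries, but not all in the same one. Cg1-cre library 2 was the highest of the 5 for 5 of the 8 abundant members, Cg1-cre library 3 for Efnb1 and Plxnb2, and Cg1-cre library 1 for Nuggc. A DAF-TM library was lowest for 6 of the 8. Relative to the mean of the 5 libraries on the log2(CPM + 0.5) scale, Rassf6 stood at 0.49, Mybl1 at 0.44 and Gcsam at 0.35 in Cg1-cre library 2, where Plxnb2 stood at -0.17 and Efnb1 at -0.09. Cg1-cre library 3 showed the other pattern, with Plxnb2 at 0.44, Efnb1 at 0.18 and Rassf6 at -0.04.

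**Figure D4:**
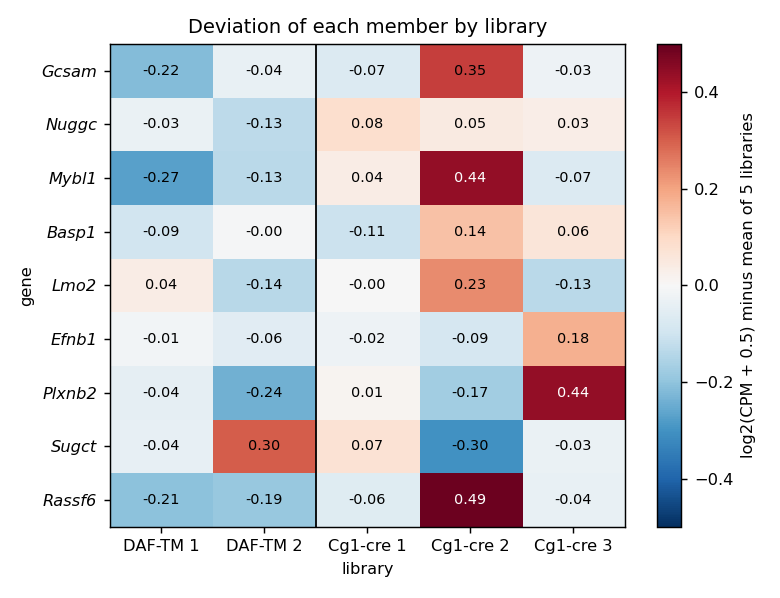
Deviation of each member from its mean over the 5 libraries on the log2(CPM + 0.5) scale (colour and number), with DAF-TM libraries left of the line and Cg1-cre libraries right of it. The strongest positive values, 0.44 to 0.49, are in Cg1-cre libraries 2 and 3, for Mybl1, Rassf6 and Plxnb2.

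Ratios of raw counts within a library do not depend on library scaling, and they overlapped between the groups. Rassf6 had 0.799 and 0.865 reads per Nuggc read in DAF-TM libraries and 0.818, 1.23 and 0.859 in Cg1-cre libraries. Mybl1 had 0.496 and 0.585 per Nuggc read in DAF-TM libraries and 0.567, 0.771 and 0.546 in Cg1-cre libraries. The ratio of Gcsam to Plxnb2 was 1.996 and 2.59 in DAF-TM libraries and 2.13, 3.23 and 1.63 in Cg1-cre libraries, so the controls spanned a wider range than the distance between the groups.

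The 2 members with the widest range over libraries were Mybl1 and Rassf6. By the root mean square distance between centred log2(CPM + 0.5) profiles over the 5 libraries, the genes most like Mybl1 among 9044 of at least 10 CPM were Cd53 (0.016), Ugp2 (0.017) and Cmpk1 (0.021). Those most like Rassf6 were a row whose symbol a spreadsheet had turned into a date (0.021), Iqcb1 (0.032) and Eaf2 (0.035). Such profiles were common, with 332 genes within a distance of 0.1 of Mybl1 and 313 within 0.1 of Rassf6.

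Relatives and partners of the members were read from the same test, in 8 lists that each include the member they belong to. In all 8, 0 genes rose and 0 fell by edgeR, DESeq2 or limma-voom. Of 19 ephrins and Eph receptors tested, 0 had an unadjusted p under 0.05, and the median log2 fold change was 0.22. Medians varied with level, being 0.03 for all genes tested and 0.25 for those with a mean of 1 to 3 CPM. Besides Efnb1 the most abundant were the receptors Ephb4, at 7.65 and 11.3 CPM in DAF-TM libraries and 7.51, 6.36 and 8.99 CPM in Cg1-cre libraries, and Ephb3, at 8.11 ± 1.54 CPM in DAF-TM (SD, n = 2) and 7.05 ± 2.65 CPM in Cg1-cre cells (SD, n = 3). Efnb1 was the only member of that list to reach 10 CPM in the controls.

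Of 18 plexins, class 4 semaphorins and plexin effectors, 3 had an unadjusted p under 0.05 (Plxna3, Plxna4 and Sema4a), and the median was 0.26. Of the 18, 8 reached 10 CPM in the controls. The 3 in the level range of the abundant members, Plxnb2, Plxnc1 and Sema4d, all had negative values. Sema4d, the semaphorin CD100 made by lymphocytes, stood at 383 ± 48.5 CPM in DAF-TM and 448 ± 11.8 CPM in Cg1-cre cells (log2 fold change -0.23, edgeR adjusted p = 0.945). Plxnc1, a receptor of Sema7a, stood at 109 ± 9.34 CPM in DAF-TM and 131 ± 36.0 CPM in Cg1-cre cells (-0.26, edgeR adjusted p = 0.945).

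In the MYB family and the MuvB complex, with which MYB proteins act in dividing cells, 9 of 12 genes had negative values. Their median was -0.13, with Mybl1 alone at an unadjusted p under 0.05. Negative values were found in 46.1% of all genes tested and in 85.5% of those in the level range of the abundant members. The histone-binding Rbbp4 stood at 602 ± 28.8 CPM in DAF-TM and 711 ± 75.0 CPM in Cg1-cre cells. The pocket protein Rbl1 stood at 131 ± 4.83 CPM in DAF-TM and 156 ± 13.8 CPM in Cg1-cre cells. Among 15 LMO proteins and LMO2 partners the median was 0.08, and Gata3 had an unadjusted p under 0.05. The E proteins Tcf3 and Tcf4, which LMO2 complexes bring to DNA, had log2 fold changes of -0.12 and -0.11 (edgeR adjusted p = 0.960 and 0.965).

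Of 16 RASSF proteins and Hippo kinases, 13 had negative values, with a median of -0.16 and unadjusted p under 0.05 for Rassf6 and Mob1a. The 6 in the level range of the abundant members all had negative values, where 85.5% of all genes in that range did. Mob1a, a cofactor of LATS kinases, stood at 170 ± 11.9 CPM in DAF-TM and 216 ± 16.7 CPM in Cg1-cre cells (-0.35, edgeR adjusted p = 0.839), and the kinase Stk4 at 416 ± 87.8 CPM in DAF-TM and 487 ± 34.5 CPM in Cg1-cre cells. Beside Basp1, the related membrane protein Marcks stood at 28.7 and 22.6 CPM in DAF-TM libraries and 20.9, 14.9 and 14.9 CPM in Cg1-cre libraries. Its groups did not overlap (log2 fold change 0.60, SE 0.20, unadjusted p = 0.00316, edgeR adjusted p = 0.334), while Marcksl1 stood at -0.25.

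Among 11 GCSAM partners in antigen receptor signalling, the median was -0.04 and 0 had an unadjusted p under 0.05. Syk, the kinase GCSAM binds, stood at 828 ± 195 CPM in DAF-TM and 851 ± 151 CPM in Cg1-cre cells, and the receptor chain Cd79b at a log2 fold change of -0.09. Among 9 genes of glutaryl-CoA and lysine breakdown the median was -0.02 and again 0 had an unadjusted p under 0.05, with Dld at -0.17 and Ehhadh at -0.02.

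Another 24 genes known from germinal centre B cells were read beside the 9. Of these, 23 had negative log2 fold changes, 0 rose or fell by edgeR, DESeq2 or limma-voom, and the median was -0.16. In the level range of the 8 abundant members, all 13 of these genes had negative values, where 85.5% of all genes in that range did, with a median of -0.20 for the 13 and -0.14 for all. Bcl6 and Cd86 were among those with an unadjusted p under 0.05. Bcl6, the repressor that sets the germinal centre programme, stood at 214 and 238 CPM in DAF-TM libraries and 286, 278 and 312 CPM in Cg1-cre libraries (-0.37, SE 0.17, edgeR adjusted p = 0.795). The most abundant members were the coactivator Pou2af1 (-0.16), the adaptor Klhl6 (-0.16) and the activation marker Cd83 (-0.31).

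**Figure D5:**
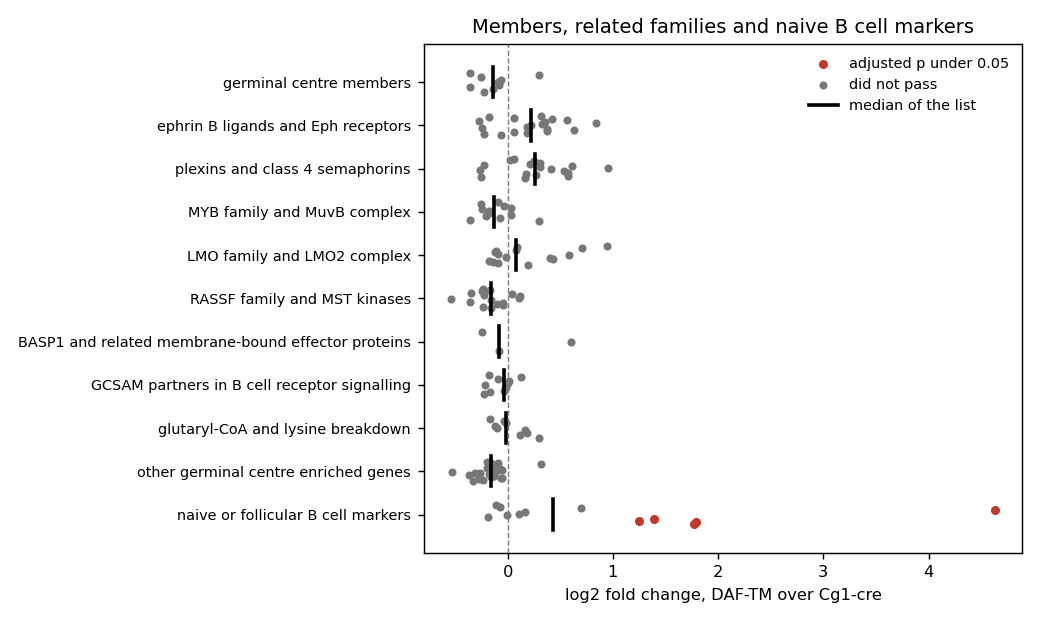
Log2 fold change (DAF-TM over Cg1-cre, horizontal axis) of every tested gene in the members, the related lists and the naive B cell markers, with red for an adjusted p under 0.05 and a black bar for the median. Among the lists plotted, red points occur in the naive B cell list alone, where 5 of 12 genes rose, Cd55 of the cassette included.

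Some markers of other cells rose in DAF-TM cells, and their part in the values above was not tested. Counts by other tools are given for each list. Of 12 naive or follicular B cell markers tested, 5 rose and 0 fell, but 1 of these is Cd55, the gene of the DAF cassette, whose call follows from the genotype. Among the 11 others 4 rose, Ccr7, S1pr1 and Klf2 among them, and DESeq2 and limma-voom also called 4. Of the 11, 7 had positive and 4 had negative log2 fold changes, with a median of 0.16. The most abundant of them, Il4ra and Fcmr, stood at -0.07 and 0.11. Without Cd55 the list summed to 1577 and 1277 CPM in DAF-TM libraries and to 1256 to 1329 CPM in Cg1-cre libraries, so the sums overlapped. Of 12 natural killer cell markers 8 rose by edgeR (Klrd1, Klrk1, Klrb1c, Ncr1, Gzma, Nkg7, Ccl5 and Il2rb), against 3 by DESeq2 and 5 by limma-voom. In all, 11 of the 12 had positive log2 fold changes, with a median of 1.53. The list summed to 184 and 97.9 CPM in DAF-TM libraries and to 54.9 to 92.5 CPM in Cg1-cre libraries. Its most abundant gene was Tbx21, the 1 with a negative value. Tbx21 stood at 36.8 and 8.78 CPM in DAF-TM libraries and 42.2, 11.5 and 35.6 CPM in Cg1-cre libraries. Of 13 macrophage markers 5 rose by edgeR (Csf1r, Vcam1, C1qb, Slc40a1 and Trf), against 2 by DESeq2 and 4 by limma-voom. Of the 13, 11 had positive log2 fold changes, and the median was 0.93. An unadjusted p under 0.05 was found for 8 of them, against 1078 of all 18767 genes tested. The list sums, 963 and 732 CPM in DAF-TM libraries and 766 to 861 CPM in Cg1-cre libraries, were mostly Apoe, which with Lyz2 made up the 2 without a positive value. Apoe stood at 777 and 607 CPM in DAF-TM libraries and 678, 669 and 733 CPM in Cg1-cre libraries.

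Of 13 T cell markers 2 rose by edgeR (Cd3d and Tcf7), against 0 by DESeq2 and 1 by limma-voom. Of the 13, 11 had positive log2 fold changes, 8 had an unadjusted p under 0.05, and the median was 0.86. The list sums, 401 and 384 CPM in DAF-TM libraries and 404 to 420 CPM in Cg1-cre libraries, were mostly Lck and Cd2, the 2 with negative values. Lck stood at 213 and 223 CPM in DAF-TM libraries and 249, 285 and 252 CPM in Cg1-cre libraries. Of 9 dendritic cell markers 1 rose by all 3 tools, Siglech, at 10.9 and 8.53 CPM in DAF-TM libraries and 2.64, 2.88 and 3.54 CPM in Cg1-cre libraries. That list summed to 120 and 103 CPM in DAF-TM libraries and to 92.4 to 96.0 CPM in Cg1-cre libraries. Of 9 plasma cell markers 1 rose by edgeR and 0 by the other tools, Prdm1, at 37.9 and 22.5 CPM in DAF-TM libraries and 14.8, 18.5 and 18.4 CPM in Cg1-cre libraries, while the list sums overlapped, at 5142 and 3773 CPM in DAF-TM libraries and 3884 to 6115 CPM in Cg1-cre libraries.

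Without DAF-TM library 1, the fit of 1 DAF-TM library against 3 controls called 2 of the 4 naive B cell markers other than Cd55 and 0 markers of the other cell types. The values kept their direction for every marker that had risen, and DAF-TM library 2 alone lay above all 3 controls for each of them. These markers were chosen by a test that included DAF-TM library 2, so both traits were largely set by the choice. In that fit the log2 fold changes of the 8 natural killer cell markers were 0.43 to 1.45, against 0.81 to 2.30 with all libraries, those of the 5 macrophage markers 0.65 to 1.71, against 1.12 to 2.06, and those of the 2 T cell markers 1.33 to 1.64, against 1.37 to 1.53. Prdm1 stood at 0.38 there, against 0.81.

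Of 9 neutrophil markers 0 rose or fell by edgeR, 4 were called by limma-voom and 0 by DESeq2. Of the 9, 6 had negative and 3 had positive log2 fold changes, with a median of -1.56. The 2 with an unadjusted p under 0.05 were Camp (-3.21) and Csf3r (0.80). The list summed to 28.5 and 72.8 CPM in DAF-TM libraries and to 81.5 to 258 CPM in Cg1-cre libraries. Of 5 erythroid markers tested 0 rose or fell by edgeR, DESeq2 or limma-voom and 0 had an unadjusted p under 0.05, with sums of 33.0 and 32.3 CPM in DAF-TM libraries and 30.8 to 42.4 CPM in Cg1-cre libraries. Hba-a1 and Hba-a2 were at 0 in every library, and no other listed marker with a row was. Hbb-bs stood at 8.36 to 20.6 CPM, and Hbb-bt had no row. The treatment of shared reads is not given, and whether the RNA of Hba-a1 and Hba-a2 was absent was not tested.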

How the data were processed

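RNA of sorted germinal centre B cells was made into libraries with an oligo-dT kit (SMART-Seq v4, 10 ng of RNA) and read as single ends of 100 nt, per the labels' protocols. Whole-number read counts by gene symbol were deposited, with no normalization, aligned to mm10 per the file headers. The submitters' processing notes name bcl2fastq, HISAT2 and featureCounts; versions, annotation, strand setting and the treatment of shared reads are not given there or in the labels. The kit has no molecular identifiers.

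Columns were mapped to samples by name, and identical columns were used once (5 libraries). Genes were tested with edgeR 4.0.16 in R 4.3.3 (TMM, filterByExpr, robust glmQLFit, two-sided glmQLFTest, Benjamini-Hochberg over 18767 genes, threshold 0.05), with limma 3.58.1 and DESeq2 1.42.0 as alternatives. SE and 95% intervals came from the same F statistics. The procedure was tested on simulated data for DAF-TM against Cg1-cre. Of 50 genes per fold size among 18767, it recovered 14% at 1.5-fold and 62% at 2-fold, and 7 of its 133 calls were false. Simulated counts had the spread of the fit by level, and libraries differed only in depth. Changed genes were picked over a wide range of levels. These rates therefore do not cover other differences between libraries, nor the abundant members in particular. Values are TMM-normalised CPM, and log2 profiles used a pseudocount of 0.5 CPM. Positions are GENCODE M21 (GRCm38), and promoters are RefSeq GRCm38.p6, found for 6 of the 9 members.

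The members and lists were chosen with earlier results of these data known. Named genes were all 9 members, any list gene past the threshold, the 3 most abundant of a list, and the 3 nearest profiles of the 2 most variable members. List genes with an unadjusted p under 0.05, Marcks with its values and Mplkip were named after their values were seen. Alternatives covered scaling, filters, tools, a replicate block, Xist as a covariate and each library left out. Some genes of these lists are not reported here by name.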

Additional observations from a re-analysis of the deposited data

How the results depend on the processing

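Over 13 alternatives 0 of 117 member values passed the threshold by edgeR, DESeq2 or limma-voom, the lowest adjusted p being 0.567, and the median of the 9 stayed between -0.19 and -0.06. Directions turned in 5 values: Efnb1 with upper-quartile factors (0.010) and with the replicate block (0.021), Basp1 with Xist as a covariate (0.030), and, leaving out 1 library, Efnb1 (range -0.12 to 0.037) and Lmo2 (range -0.19 to 0.015). The count of genes called, 77 in the reported fit, was 39 with upper-quartile factors, 27 with DESeq2, 51 with limma-voom and 43 with the Xist covariate; leaving out 1 library it ran from 14 (without DAF-TM library 1) to 118 (without DAF-TM library 2), with 43 without Cg1-cre library 1 and 44 without library 3. Leaving out a DAF-TM library leaves 1, assumed to vary like the controls. The causes were not tested. The labels state no pairing beyond the replicate number. Correlations of deviations were -0.12 and -0.25 for same-numbered libraries. With 2 DAF-TM libraries their deviations mirror each other, so these values cannot show whether libraries were paired. The replicate block gave 61 genes and 0 members called. Depth limits Sugct most, with 12 to 26 counts a library, and DESeq2 gave it no adjusted p.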
